A study of Mus musculus with 117 samples.

Results

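The regions described here were the H3K9me3 peaks of mouse fibroblasts before reprogramming and after 4 days of it. They came from the authors' 2 H3K9me3 peak lists, one for D4 shCtrl cells with 4468 peaks and one for MEF with 12020 peaks, 16488 of the 321782 peaks in the 20 lists used. A peak was called kept when it shared at least 1 bp with a peak of the other list. A D4 shCtrl peak with no such overlap was called gained, and a MEF peak with none was called lost. This gave 2550 gained and 1918 kept peaks in the D4 shCtrl list, and 2013 kept and 10007 lost peaks in the MEF list. The numbers of kept peaks differ between the lists because 1 peak of one list can span several of the other.

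The D4 shCtrl cells were mouse embryonic fibroblasts (MEF) from E13.5 embryos at passage 1 that had been reprogrammed for 4 days with OKSM (Oct4, Klf4, Sox2 and Myc) and carried the control hairpin shCtrl. The MEF used for ChIP were E13.5 cells at passage 1, labelled wild type, with no hairpin named. Factor expression and the control hairpin therefore differ together between the 2 ChIP lists and cannot be told apart. The RNA libraries came from 3 D4 shCtrl and 3 MEF shCtrl samples, so both RNA groups carried the hairpin. Other lists used below came from D4 cells with a hairpin against Ubc9 (shUbc9), the SUMO-conjugating enzyme, and from embryonic stem (ES) cells, with no siRNA named or with siCtrl, a control siRNA.

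Trimethylation of lysine 9 on histone H3 (H3K9me3) is the mark of constitutive heterochromatin and is laid down by enzymes that include Suv39h1, Suv39h2 and Setdb1. It silences endogenous retroviruses and other repeats, and in human fibroblasts it covers regions that are known to resist binding by the reprogramming factors. SUMO is a small protein that is conjugated to other proteins by Ubc9, and several components of the H3K9me3 silencing machinery are SUMO targets.

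Each ChIP list was made from 2 replicates, so there is 1 list per condition, no spread between replicates and no test between lists. Percentages of peaks are given with exact 95% binomial intervals, which cover counting error only. The depth of the ChIP libraries is unknown from these files. The lists also reached different lowest significance: the lowest −log10 q was 15.73 in the D4 shCtrl list and 4.62 in the MEF list. Of the MEF peaks, 97.3% lay below the lowest value of the D4 shCtrl list, and 98.9% of the lost peaks did. A loss of H3K9me3 and a stricter or shallower D4 shCtrl list cannot be told apart for those peaks.

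Most H3K9me3 peaks were found in only 1 of the 2 lists. In the D4 shCtrl list 57.1% of peaks were gained (interval 55.6% to 58.5%). In the MEF list 16.75% were kept (interval 16.1% to 17.4%) and 83.3% were lost. The covered length differed much less than the number of peaks, with 6.03 Mb in D4 shCtrl cells and 6.86 Mb in MEF. The shared stretches added up to 1.58 Mb, which was 26.2% of the D4 shCtrl length and 23.0% of the MEF length. Peaks were wider in D4 shCtrl cells, with a median of 965 bp against 463 bp in MEF. D4 shCtrl peaks were also the wider ones for each other histone mark mapped in both conditions, given below. The median fold enrichment of H3K9me3 peaks over background, the authors' value per peak, was 5.39 in D4 shCtrl cells and 6.50 in MEF.

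The kept share was much higher among MEF peaks that met the D4 shCtrl list's own lowest −log10 q. Of these 322 MEF peaks, 209 were kept, or 64.9% (interval 59.4% to 70.1%). Among the 11698 MEF peaks below that value 15.4% were kept. When the MEF list was restricted in this way, 94.7% of D4 shCtrl peaks had no MEF partner. The share kept thus depended strongly on which MEF peaks were counted.

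Higher-scoring peaks were kept more often in both lists. In the D4 shCtrl list the share kept was 75.1% (interval 70.8% to 79.1%) in the highest of 10 equal groups by score and 26.0% (interval 21.95% to 30.3%) in the lowest. In the MEF list the matching shares were 45.8% (interval 43.0% to 48.7%) and 6.24% (interval 4.94% to 7.76%). The score is the authors' value per peak, used here only for its rank within a list. The shares of the 2 lists are not compared with each other, since D4 shCtrl peaks were looked for in the longer MEF list.

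**Figure D1:**
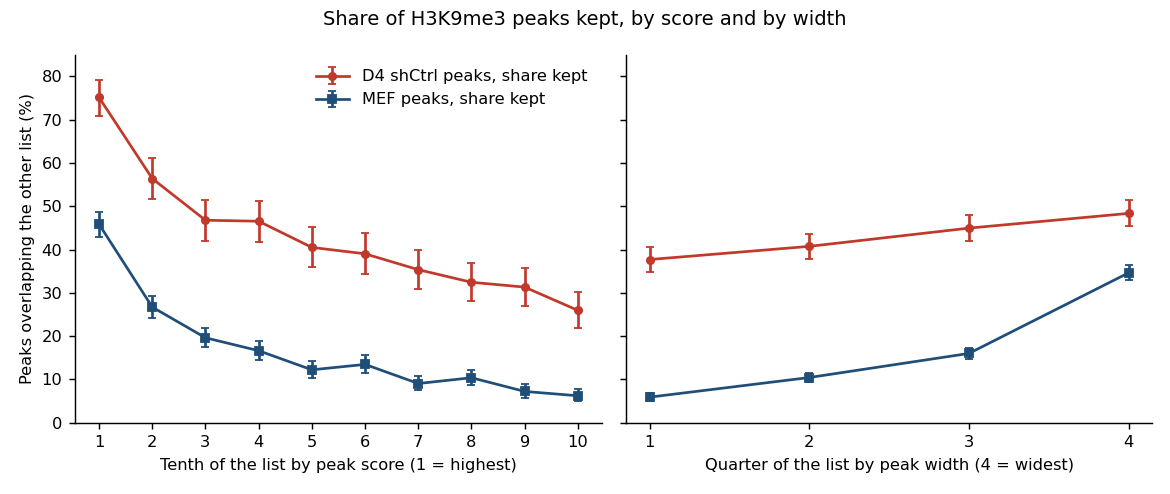
Share of H3K9me3 peaks that overlapped the other list (percent, vertical axis) in 10 equal groups by score rank (left) and 4 equal groups by peak width (right), for D4 shCtrl peaks (circles) and MEF peaks (squares); bars are exact 95% binomial intervals. The share kept fell with score rank in both lists, with 75.1% in the top group of D4 shCtrl peaks and 45.8% in the top group of MEF peaks, and width mattered more in MEF, where it reached 34.6% in the widest peaks.

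Width separated kept from lost peaks more than it separated gained from kept ones. Gained peaks had a median width of 901.5 bp, against 1060 bp for kept D4 shCtrl peaks. Kept MEF peaks had a median of 708 bp, against 432 bp for lost ones. The widest lost peak spanned 2635 bp, whereas the widest kept MEF peak spanned 7919 bp. In 4 equal groups by MEF width, from the narrowest, the share kept was 5.92%, 10.45%, 16.0% and 34.6%. By D4 shCtrl width it was 37.7%, 40.7%, 44.9% and 48.3%. Wider peaks offer more bases for an overlap of 1 bp, and the part of this in the width trend was not tested. Over all widths, 72.25% of D4 shCtrl peaks were gained and 10.32% of MEF peaks kept when 50% of both peaks had to be shared, against 57.5% and 16.6% when 50% of the shorter peak was enough. Among MEF peaks in the highest of 4 equal groups by score, the share kept still ran from 13.8% in the narrowest group to 49.0% in the widest.

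Where 1 D4 shCtrl peak met exactly 1 MEF peak, the D4 shCtrl peak was usually the wider one. There were 1664 such pairs, and it was so in 1211 of them, or 72.8%. The median ratio of D4 shCtrl to MEF width was 1.24. In 769 pairs the MEF peak lay wholly inside the D4 shCtrl peak. The summits lay a median of 113 bp apart, with the middle of the range from 35 to 350.2 bp. Across these pairs the Spearman correlation was 0.54 for width and 0.23 for score, given as a description, since the pairs share the same 2 lists. The median fold enrichment of the paired peaks was 5.49 in D4 shCtrl cells and 7.31 in MEF. In 145 cases a D4 shCtrl peak spanned 2 to 4 MEF peaks, while 57 MEF peaks met 2 or more D4 shCtrl peaks.

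Few kept peaks were shared by a short stretch alone, while more gained and lost peaks lay close outside the border. Of the kept MEF peaks, 3 shared fewer than 50 bp, the smallest overlap being 2 bp. Just outside, the nearest unshared pair lay 1 bp apart, and 426 gained peaks (16.7%) and 437 lost peaks (4.37%) lay within 1 kb of a peak of the other list. With a gap of 1 kb allowed, 47.54% of D4 shCtrl peaks were gained and 20.38% of MEF peaks were kept. Lost peaks were mostly far from any D4 shCtrl peak, at a median of 219.7 kb, and 8.48% of them lay within 5 kb of one. Gained peaks lay closer to MEF peaks, at a median of 24.4 kb, and 31.0% lay within 5 kb, beside a MEF list that held more peaks to be near to.

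Kept peaks were clustered. Another peak of the same list lay within 5 kb of 38.1% of gained and 49.6% of kept D4 shCtrl peaks, and of 56.1% of kept and 21.7% of lost MEF peaks. In windows of 1 Mb that held 20 or more MEF peaks, 43.9% of 1087 MEF peaks were kept (interval 40.9% to 46.9%), against 10.1% of the 338 MEF peaks that were alone in their window (interval 7.07% to 13.8%). The share gained among D4 shCtrl peaks was 45.8% in windows with 20 or more D4 shCtrl peaks and 62.2% in windows with 1. The densest window, on chromosome 4 from 146 Mb (mm9), held 90 D4 shCtrl peaks, of which 44 were gained, and 66 MEF peaks, of which 49 were kept. The next window down, on chromosome 4 from 145 Mb, held 46 D4 shCtrl peaks with 13 gained and 53 MEF peaks with 36 kept. On chromosome 7 from 46 Mb, 16 of 37 D4 shCtrl peaks were gained and 24 of 29 MEF peaks were kept. The genes in these windows were not analysed here. Of 2176 windows with a MEF peak, 834 held no D4 shCtrl peak, and 60 of 1402 windows with a D4 shCtrl peak held no MEF peak.

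Chromosomes differed in how much was kept. On chromosomes 7, 17, 8, 4 and 9 between 22.4% and 27.02% of MEF peaks were kept, each with an interval above the 16.75% of the whole list. On chromosomes 2, 14, 6, 15 and 3 between 11.2% and 12.55% were kept, each with an interval below that share. On both sex chromosomes the kept share of MEF peaks was above that of the whole list, while the gained share of D4 shCtrl peaks lay on opposite sides of it. On Y, 1 of 39 D4 shCtrl peaks was gained, or 2.56%, and 26 of 58 MEF peaks were kept, or 44.8% (interval 31.7% to 58.5%). On X, 58 of 73 D4 shCtrl peaks were gained, or 79.5%, and 15 of 51 MEF peaks were kept, or 29.4% (interval 17.5% to 43.8%). X was the only chromosome with more peaks in the D4 shCtrl list than in the MEF list. On Y the median fold enrichment was 2.74 in D4 shCtrl cells and 7.39 in MEF, although these peaks were among the highest by score in both lists. How reads that fit several places were counted is not stated in the labels or file headers. Without the sex chromosomes, 57.2% of D4 shCtrl peaks were gained and 16.6% of MEF peaks were kept.

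**Figure D2:**
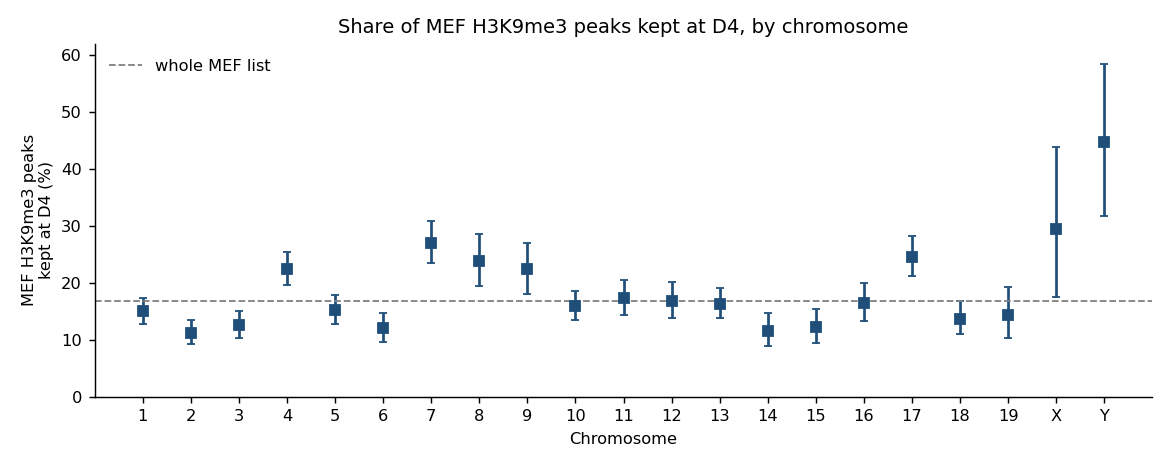
Share of MEF H3K9me3 peaks kept at D4 (percent) on each chromosome, with exact 95% binomial intervals; the dashed line is the 16.75% of the whole MEF list. The intervals of chromosomes 4, 7, 8, 9, 17, X and Y lie wholly above the line, and chromosome 2 lies at 11.2%. Y is highest, with 26 of 58 peaks on a wide interval, and X is next at 29.4%.

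The highest-scoring regions were named by rank and width within each class. All coordinates are of the mouse build mm9, and the annotation of that build was not used here. The top D4 shCtrl peak was kept and lay at chrY:2884454-2884894, with a fold enrichment of 3.44. It met a MEF peak of fold enrichment 2.83. The top MEF peak, at chrY:2882312-2884219, was kept too and met 2 D4 shCtrl peaks. It carried SUMO-1 and SUMO-2 peaks in MEF and in ES cells. Of the 5 highest-scoring lost peaks all lay on Y, the first at chrY:2855898-2856429 with rank 15 in the MEF list. In the 1 Mb window of Y from 2 Mb, 24 MEF peaks were kept and 20 were lost. The lost peak chrY:1634835-1635311, also among the 5, lay outside that window. The highest-scoring lost peak on Y carried SUMO-1 and SUMO-2 in both MEF and ES cells.

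Among gained peaks the highest score belonged to chr4:145736984-145737322, a peak of 339 bp with rank 11 in the D4 shCtrl list that was also in the D4 shUbc9 list. A further 2 of the 5 best gained peaks lay near each other at chrX:166422287-166423259 and chrX:166419396-166420221, with fold enrichments of 3.88 and 3.56. On chromosome 12 a gained peak at chr12:5061691-5062371 lay beside a kept one at chr12:5062663-5064928, which ranked 4 in the D4 shCtrl list and 7052 in its MEF form of 627 bp. The widest kept D4 shCtrl peak, chr2:116369824-116388588, covered 18765 bp and took in 4 MEF peaks. The widest gained peak, chr4:152795074-152811311, covered 16238 bp but ranked only 3705. It was absent from the D4 shUbc9 list and from both ES lists.

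SUMO-1 and SUMO-2 peaks of MEF sat on kept H3K9me3 peaks more often than on gained or lost ones. SUMO-1 was on 109 gained peaks, or 4.28% (interval 3.52% to 5.13%), against 306 kept D4 shCtrl peaks, or 16.0% (interval 14.3% to 17.7%). SUMO-2 was on 2.86% of gained and 15.2% of kept D4 shCtrl peaks. In the MEF list SUMO-1 was on 14.3% of kept peaks (interval 12.8% to 15.9%) and 6.07% of lost ones (interval 5.61% to 6.55%). SUMO-2 was on 13.6% of kept and 6.87% of lost MEF peaks. The differences, gained minus kept and kept minus lost, were −11.68 points and 8.19 points for SUMO-1. For SUMO-2 they were −12.36 points and 6.70 points. SUMO was mapped in MEF, where kept but not gained peaks are H3K9me3 peaks, and the part of this in the first difference was not tested.

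Seen from SUMO, MEF H3K9me3 peaks that carried SUMO-1 or SUMO-2 in MEF were kept in 330 of 1127 cases, or 29.3% (interval 26.6% to 32.0%). Those without SUMO were kept in 15.45% of 10893 cases (interval 14.8% to 16.1%). Peaks with SUMO were wider, with a median of 664 bp against 448 bp without it. Within the 4 width groups of the MEF list, from the narrowest, the share kept was 8.78%, 16.1%, 20.7% and 43.5% with SUMO, against 5.78%, 10.1%, 15.5% and 32.7% without. It was higher with SUMO in all 4 groups, and the gap was smaller in the narrower ones. In the narrowest group only 13 kept and 135 lost peaks carried SUMO, so the gap there was not resolved. Peaks with SUMO also scored higher, at a median of 24.9% of the way down the list against 52.2% without it. Within 4 equal groups by score, from the highest, the share kept was 41.3%, 21.8%, 15.5% and 11.1% with SUMO, against 31.3%, 14.7%, 11.2% and 6.89% without. It was higher with SUMO in all 4, by less than over the whole list, and the intervals overlapped in the 2 lower groups. Among the 322 MEF peaks that met the D4 shCtrl list's lowest −log10 q, SUMO-2 was on 34.9% of kept and 31.0% of lost peaks, a difference of 3.955 points. SUMO-1 was on 31.6% of kept and 23.0% of lost peaks there. These shares rest on 209 kept and 113 lost peaks and are given without intervals, so neither difference is called resolved.

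The share kept among SUMO-bearing MEF peaks differed with the presence of active marks. Active marks, meaning H3K4me3, H3K4me1 or H3K27ac peaks of MEF, which mark promoters and enhancers, overlapped 309 of the 797 lost peaks with SUMO, or 38.8%. They overlapped 20 of the 330 kept peaks with SUMO, or 6.06%. Of MEF peaks with SUMO and no active mark, 310 of 798 were kept, or 38.9% (interval 35.5% to 42.3%). With SUMO and an active mark, 20 of 329 were kept, or 6.08% (interval 3.75% to 9.23%). Among lost peaks with SUMO, those on an active mark had a median width of 550 bp and a median score rank at 34.3% of the list, and those off active marks 589.5 bp and 32.2%. The 20 kept peaks with SUMO and an active mark had a median score rank at 0.154% of the list. Kept peaks with SUMO off active marks had it at 11.6%. Without SUMO the shares kept were 15.9% with no active mark and 2.68% with one. Over all peaks, active MEF marks were on 1.44% of kept peaks and 6.36% of lost ones, chiefly through H3K27ac on 0.894% of kept and 5.41% of lost peaks. H3K4me1 was on 0.844% of kept and 3.68% of lost MEF peaks. H3K27me3, the polycomb mark, differed little, at 1.39% of kept and 0.999% of lost peaks.

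**Figure D3:**
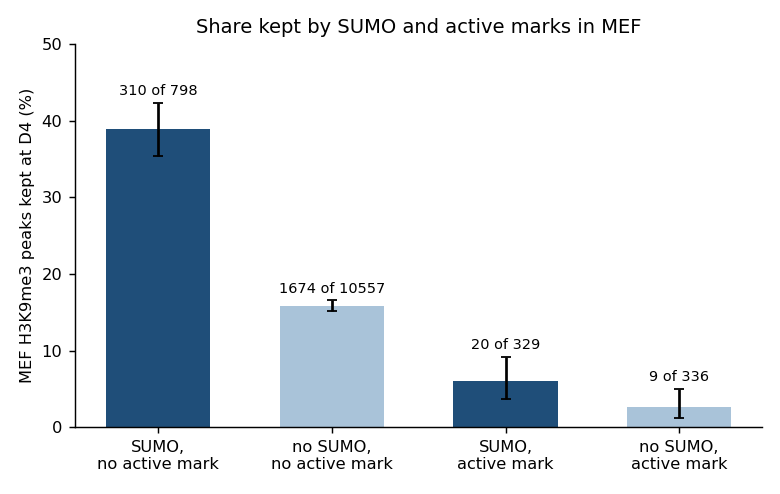
Share of MEF H3K9me3 peaks kept at D4 (percent), split by SUMO-1 or SUMO-2 and by active marks in MEF; bars are exact 95% binomial intervals and the numbers are peaks kept of peaks in the group. Peaks with SUMO and no active mark stand highest at 38.9%, and both groups with an active mark lie under 10%.

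Active-mark peaks of D4 lay on few H3K9me3 peaks of any class. H3K4me3, H3K4me1 or H3K27ac peaks of D4 shCtrl cells were on 16 kept peaks of the MEF list, or 0.795%, and on 163 lost ones, or 1.63%. On the D4 shCtrl list they were on 1.02% of gained and 1.10% of kept peaks. The 163 lost peaks were not split by an active mark in MEF, so marks newly taken on were not counted. The D4 shCtrl lists were also shorter than those of MEF for H3K27ac, at 25719 against 37379 peaks, and H3K4me1, at 13633 against 25401.

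The share of H3K9me3 peaks with SUMO was higher with the ES lists than with the MEF lists in every class, gained peaks included. In ES cells SUMO-1 was on 18.0% of gained peaks (interval 16.5% to 19.5%), while the MEF SUMO-1 list, of similar length, was on 4.28% of them. The 2 SUMO-1 lists held 12339 peaks in ES cells and 12408 in MEF. On kept D4 shCtrl peaks SUMO-1 was at 28.8% in ES cells and 16.0% in MEF. For kept MEF peaks these shares were 25.6% and 14.3%, and for lost ones 8.08% and 6.07%. ES SUMO-2 was on 17.3% of gained and 27.5% of kept D4 shCtrl peaks, and on 24.6% of kept and 7.61% of lost MEF peaks. The SUMO-2 lists differed in length, with 12014 peaks in ES cells and 9979 in MEF. Counted per SUMO-2 peak, 6.23% of the ES list and 6.77% of the MEF list lay on lost peaks. Gained peaks with SUMO in ES cells were also H3K9me3 peaks of ES cells in 305 of 503 cases, or 60.6% (interval 56.2% to 64.9%). Those without SUMO in ES cells were so in 23.0% of 2047 cases (interval 21.1% to 24.8%). For kept D4 shCtrl peaks the shares were 68.1% with and 20.9% without SUMO in ES cells.

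**Figure D4:**
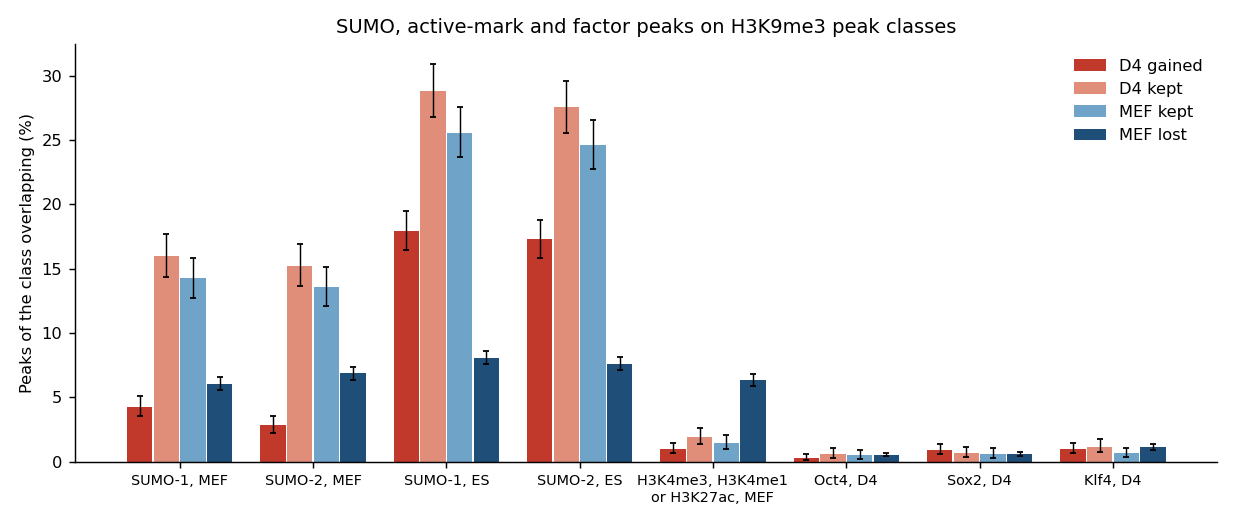
Share of each H3K9me3 peak class (percent, vertical axis) that overlapped SUMO-1 and SUMO-2 peaks of MEF and ES cells, active marks of MEF, and Oct4, Sox2 and Klf4 peaks of D4 shCtrl cells; bars are exact 95% binomial intervals. Kept peaks stand above gained and lost ones for SUMO, lost peaks stand out for active marks at 6.36%, and the 3 factors lie near 1% or below in all classes.

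Oct4, Sox2 and Klf4, the DNA-binding reprogramming factors, were scarce on H3K9me3 peaks of all classes. Any of the 3 was on 46 gained peaks, or 1.80% (interval 1.32% to 2.40%), and on 30 kept D4 shCtrl peaks, or 1.56% (interval 1.06% to 2.225%). In the MEF list any of the 3 was on 22 kept peaks, or 1.09% (interval 0.686% to 1.65%), and 145 lost peaks, or 1.45% (interval 1.22% to 1.70%). Over all widths gained minus kept was 0.24 points (interval −0.56 to 0.99). Kept minus lost was −0.36 points (interval −0.80 to 0.24). The counts pooled over widths resolved neither direction, but kept MEF peaks were wider than lost ones. Within 4 equal groups by MEF width, from the narrowest, any of the 3 was on 1.12%, 0%, 0.208% and 1.83% of kept peaks. These were 2 of 178, 0 of 314, 1 of 481 and 19 of 1040 kept peaks. On lost peaks the shares were 1.03%, 0.706%, 1.43% and 3.10%. The shares by width are given without intervals and rest on few kept peaks, so no difference within a width group is called resolved. Klf4, which had the longest list, was on 13 kept MEF peaks, or 0.646%, and 113 lost ones, or 1.13%, a difference of −0.48 points (interval −0.83 to 0.01). In the same width groups Klf4 was on 0%, 0%, 0% and 1.25% of kept MEF peaks, with all 13 in the widest group. Its shares of lost MEF peaks were 0.778%, 0.557%, 1.11% and 2.44%. Oct4 was on 7 gained and 12 kept D4 shCtrl peaks, Sox2 on 24 gained and 13 kept, and Klf4 on 26 gained and 22 kept.

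Per factor peak the shares were lower, since the factor lists were longer than the H3K9me3 lists. Of 16740 Oct4 peaks, 0.114% lay on H3K9me3 of D4 shCtrl cells and 0.376% on H3K9me3 of MEF, while 57.1% lay on H3K27ac of D4 shCtrl cells. The D4 shCtrl lists covered unlike lengths, 6.03 Mb for H3K9me3 and 41.9 Mb for H3K27ac, which these shares do not take into account. For Sox2 the shares on H3K9me3 were 0.183% in D4 shCtrl cells and 0.347% in MEF, and for Klf4 they were 0.143% in D4 shCtrl cells and 0.366% in MEF. All 3 factors shared 3 gained and 4 kept D4 shCtrl peaks, and 3 kept and 26 lost MEF peaks. Of the 145 lost peaks with a factor, 62 carried an active mark in MEF already, 65 carried SUMO in MEF, and 39 carried an active mark at D4.

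A few regions held SUMO-1, SUMO-2 and all 3 factors. Of the 3 kept ones in the D4 shCtrl list, chr16:87625959-87627406 also carried SUMO-1 and SUMO-2 in ES cells. The kept peak at chr15:96967651-96969164 had a fold enrichment of 6.28 in D4 shCtrl cells and 9.75 in its MEF form. The kept peak at chr6:37568046-37571304 also carried active marks in both conditions. The only gained one, at chr10:85561259-85563328, carried active marks in both conditions as well. The lost ones with the highest scores were chr11:62732472-62733524 and chr13:114344523-114345464, both on active marks in MEF.

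The D4 shUbc9 list, from reprogramming cells with Ubc9 depleted, gave a second view of H3K9me3 at D4. It held 77.6% of kept and 57.0% of gained peaks of D4 shCtrl cells, and 77.7% of kept and 6.11% of lost MEF peaks. The lost peaks that it held numbered 611, had a median width of 595 bp and lay on ES H3K9me3 in 25.2% of cases. The 9396 peaks lost from both D4 lists had a median width of 424 bp and lay on ES H3K9me3 in 7.57%. Gained peaks found in both D4 lists numbered 1454, with a median width of 1040 bp, and the 1096 in D4 shCtrl alone had a median of 742 bp. Counting a peak as kept when either D4 list held it, 21.8% of MEF peaks were kept. Depletion of Ubc9 and differences between lists cannot be told apart here.

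H3K9me3 of ES cells lay on gained peaks nearly as often as on kept ones, and on lost peaks much less. A peak in either ES list was on 30.4% of gained (interval 28.6% to 32.2%) and 35.4% of kept D4 shCtrl peaks (interval 33.3% to 37.6%). In the MEF list it was on 33.8% of kept (interval 31.8% to 35.9%) and 8.64% of lost peaks (interval 8.10% to 9.21%). The 2 ES lists differed in length, with 21492 peaks for siCtrl cells and 8508 for cells with no siRNA named. The order of gained and kept peaks differed between them: 23.7% of gained and 21.5% of kept D4 shCtrl peaks were in the siCtrl list, against 19.5% of gained and 29.2% of kept in the list with no siRNA named.

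Of the marks mapped in both conditions, H3K9me3 had the lowest share of MEF peaks kept. H3K4me3 kept 97.8% of its MEF peaks, H3K27ac 54.5%, H3K27me3 46.2% and H3K4me1 20.9%, against 16.75% for H3K9me3. The shares gained among D4 shCtrl peaks were 16.4% for H3K4me3, 23.0% for H3K27ac, 43.6% for H3K27me3, 60.6% for H3K4me1 and 57.1% for H3K9me3. Within the highest-scoring of 5 equal groups of MEF peaks, the shares kept were 99.97% for H3K4me3, 83.5% for H3K27ac, 81.5% for H3K27me3, 36.0% for H3K4me1 and 36.3% for H3K9me3. The lowest −log10 q was higher in the D4 shCtrl list than in the MEF list for each of these marks, as for H3K9me3, which had the lowest value of the 5 marks in MEF. The median width was also larger in the D4 shCtrl list for each mark. It was 2462 against 1200 bp for H3K27me3 and 1308 against 1036 bp for H3K4me1. For H3K4me3 it was 1828 against 1618 bp, and for H3K27ac 1255 against 1156 bp. Wider peaks at D4 were thus not particular to H3K9me3.

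RNA of the enzymes and cofactors of the mark was compared between the 3 D4 shCtrl and 3 MEF shCtrl libraries, which held 25.1 M to 46.7 M counts in genes at D4 and 39.9 M to 54.0 M in MEF. Levels are counts scaled to library size (CPM) with trimmed-mean factors, and calls are from edgeR's quasi-likelihood test at an adjusted p of 0.05 over 16715 genes. Of all genes tested, 33.3% rose and 33.5% fell, so a call was common. The labels do not say whether the 3 libraries came from separate embryos or cultures, so the gene tests measure only the spread between them. A lower level in bulk RNA cannot tell fewer cells of a type from less RNA per cell.

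The factors themselves checked the labels. Pou5f1, which encodes Oct4, had 28.4, 25.1 and 36.2 CPM in D4 shCtrl cells, against 0.315, 0.188 and 0.256 CPM in MEF shCtrl. Sox2 had 27.2, 17.9 and 27.01 CPM at D4, against 0.761, 0.506 and 0.488 CPM in MEF. Of the 11 fibroblast markers 4 rose and 5 fell. Among the risers Pdgfra and Col3a1 had log2 changes of 0.76 and 0.75, and among those that fell Thy1 and Pdgfrb had −0.76 and −0.79. Vim fell too but was still abundant, at 1398 ± 153 CPM in D4 shCtrl cells and 1735 ± 83.4 CPM in MEF shCtrl (SD, n = 3 each). All 9 pluripotency markers, Nanog among them, stayed below 0.6 CPM in every library. The 5 macrophage markers summed to 35.7 to 36.2 CPM at D4 and 37.1 to 51.4 CPM in MEF, with 1 rising and 4 falling. Epithelial markers rose in 4 of 5 cases, with Cdh1 at 25.5 ± 2.29 CPM in D4 shCtrl cells and 0.381 ± 0.134 CPM in MEF shCtrl (SD, n = 3 each). The calls of Col1a1 among the fibroblast markers, Adgre1 among the macrophage ones and Epcam among the epithelial ones were each lost without at least 1 library. The part of such cells in the peak changes was not tested.

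Of the 6 H3K9 methyltransferase genes 4 rose modestly and none fell, with a median log2 change of 0.26 against 0.01 over all genes tested. Suv39h1 had 39.1, 45.3 and 38.8 CPM in D4 shCtrl cells, against 29.2, 34.5 and 30.9 CPM in MEF shCtrl. All 3 D4 libraries were above all 3 MEF libraries, and the log2 change was 0.38 ± 0.08 (SE, edgeR quasi-likelihood test, adjusted p = 0.0025). Setdb1, known as the main enzyme at retroviral repeats in mouse ES cells, had 88.8, 93.7 and 90.6 CPM at D4, against 73.6, 76.5 and 74.6 CPM in MEF, also without overlap (log2 change 0.28 ± 0.05). Suv39h2 and Ehmt1 rose by 0.44 and 0.23 on the log2 scale, and Suv39h2 was not called with the spread taken from all RNA libraries (edgeR adjusted p = 0.11). Ehmt2, at −0.09, and Setdb2, at 0.05, did not pass the test.

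Among the 16 cofactors of H3K9me3 silencing 8 rose and 3 fell, and the risers included genes of replication-coupled chromatin assembly and DNA methylation. Uhrf1, which recruits Dnmt1 to replicating DNA, had 127.4, 137.9 and 125 CPM in D4 shCtrl cells, against 68.6, 72.4 and 68.2 CPM in MEF shCtrl. Chaf1a and Chaf1b, subunits of the chromatin assembly factor CAF-1, rose by 0.78 ± 0.05 and 0.82 ± 0.08 on the log2 scale, and Dnmt1, the maintenance DNA methyltransferase, by 0.49 ± 0.05. Atf7ip, a partner that stabilises Setdb1, had 107, 61.4 and 99.9 CPM at D4, against 53.0, 36.0 and 54.4 CPM in MEF, with replicate 2 lowest in both groups. Trim28, the corepressor that brings Setdb1 to KRAB zinc finger proteins, fell by 0.24 on the log2 scale, with 266 ± 6.53 CPM at D4 and 313.8 ± 3.75 CPM in MEF (SD, n = 3 each). Daxx, a chaperone of histone H3.3, fell by 0.54. Mphosph8, a subunit of the HUSH silencing complex, was the third, at −0.14 (edgeR adjusted p = 0.043), and its call was lost in 5 of the 6 fits that left out 1 library, at 0.065 to 0.14, and with DESeq2 at 0.12. With library sizes alone Trim28 and Mphosph8 were not called (edgeR adjusted p = 0.072 and 0.64), and that scaling gave 6418 genes higher and 3908 lower, against 5558 and 5594 with trimmed-mean scaling.

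**Figure D5:**
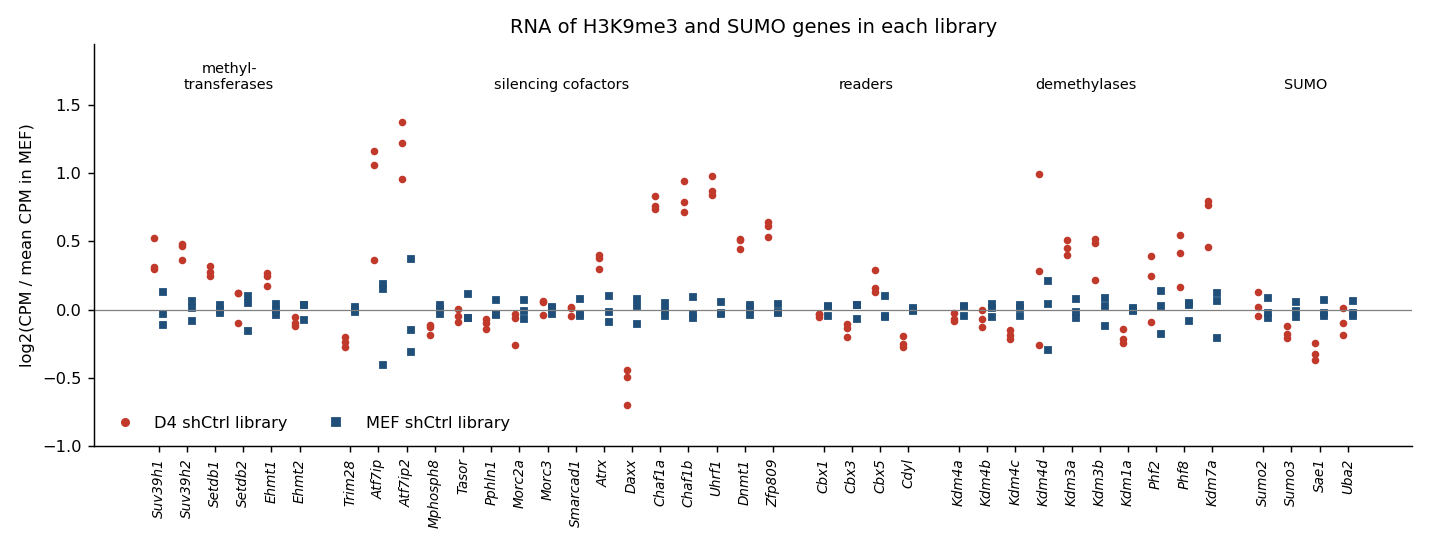
RNA of genes of H3K9me3 and SUMO conjugation in each library, as log2 of CPM over the mean CPM in MEF shCtrl, with 3 D4 shCtrl libraries (circles) left of 3 MEF shCtrl libraries (squares) per gene. Chaf1a, Chaf1b and Uhrf1 stand clear of the MEF libraries by 0.7 to 1.0, most methyltransferases by less, and Daxx lies lowest.

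The genes that read and remove the mark moved in both directions. Of the 4 readers Cbx5, which encodes HP1α, rose by 0.20, Cbx3 and Cdyl fell by 0.15 and 0.24 on the log2 scale, and Cbx1 stood at −0.04. Of the 10 demethylase genes 4 rose and 2 fell. Kdm3a and Kdm7a, which act on lower methylation states of lysine 9, rose by 0.45 and 0.68. Kdm4c, which removes trimethylation, fell by 0.18, and its relatives Kdm4a and Kdm4b stood at −0.06 and −0.07 without passing the test. The other that fell was Kdm1a, by 0.20, which acts on lower methylation states. With library sizes alone the falls of Cdyl, Kdm4c, Kdm1a and Cbx3 were not called (edgeR adjusted p = 0.14, 0.36, 0.23 and 0.60). Phf2 was at 0.20 with an adjusted p of 0.17, and at 0.19 with an adjusted p of 0.0093 with the replicate number as a block. Of 4 SUMO conjugation genes none rose and 2 fell: Sae1, a subunit of the SUMO-activating enzyme, by 0.31 and Sumo3 by 0.17 on the log2 scale. Sumo2 stood at 0.04 and Uba2, the other subunit of that enzyme, at −0.09 without passing the test. With library sizes alone Sae1 was still called and Sumo3 was not (edgeR adjusted p = 0.43). Several of these small changes also rested on single libraries. Cbx3 lost its call without D4 shCtrl replicate 1 or 3 or MEF shCtrl replicate 2 or 3, at adjusted p values of 0.059, 0.14, 0.12 and 0.089 in edgeR's test. Sumo3 lost it without D4 shCtrl replicate 3 or MEF shCtrl replicate 2, at 0.066 and 0.078 by edgeR. Cbx5 lost it without D4 shCtrl replicate 1 or MEF shCtrl replicate 1 or 2, at 0.077, 0.076 and 0.066 by edgeR. Of the 40 genes of the 5 lists, 17 were called higher and 9 lower in D4 shCtrl cells. With library sizes alone 18 were called higher and 2 lower, Daxx and Sae1. With the spread taken from all RNA libraries of the series, 11 were called higher and 1 lower, and the 1 lower was Daxx. The risers not called there were Suv39h2, Atf7ip2, Atrx, Cbx5, Kdm3a and Kdm7a, at edgeR adjusted p values of 0.11, 0.058, 0.60, 0.41, 0.24 and 0.083.

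Repeat families, many of which lie under H3K9me3, took a larger share of the RNA at D4. They held 17.2%, 16.1% and 18.8% of all counts in D4 shCtrl libraries, against 10.1%, 8.60% and 10.1% in MEF shCtrl, and the groups did not overlap. Scaled with the genes, 92.3% of 766 families rose and 0.653% fell, with a median log2 change of 1.10. This shift was shared by families that H3K9me3 is known to silence and by others. IAP families, endogenous retroviruses silenced through Setdb1, had a median of 1.24 with 15 of 16 risen, L1 families 1.22 with 87 of 89 risen, and the SINE families B1 to B4 0.72 with 17 of 17 risen. MERVL and MT2 had a median of 0.98 with 7 of 7 risen. The SE was nearly the same for families of unlike spread, at 0.18 for L1_Mm and 0.19 for RLTR13D3. L1_Mm was called risen although its libraries overlapped, from 408 to 1082 CPM at D4 and 161.2 to 474.3 CPM in MEF. RLTR13D3 had 133.1 ± 7.93 CPM at D4 and 185.8 ± 6.94 CPM in MEF (SD, n = 3 each). The SE and calls of repeat families thus do not measure the spread between each family's own libraries.

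Families were also scaled with their own library sizes and factors, which centres them on their common shift. A near-even split over all families is therefore largely set by that scaling. In it, 249 of 766 were higher at D4 and 240 lower, with a median log2 change of 0.04. Of the 16 IAP families 6 were then higher and 4 lower, of the 89 L1 families 43 and 12, and of the 17 SINE families none and 14. IAPLTR4_I had the largest log2 change of the IAP families, at 2.49 ± 0.31 in the gene scaling, from low levels of 1.49, 1.815 and 2.23 CPM in D4 shCtrl cells and 0.394, 0.262 and 0.349 CPM in MEF shCtrl. IAPEY2_LTR, a long terminal repeat of IAP, had 19.9, 14.0 and 23.3 CPM in D4 shCtrl cells, against 5.85, 4.56 and 6.97 CPM in MEF shCtrl, a log2 change of 1.72 ± 0.19 in the gene scaling. RLTR13D5 had 58.6, 53.5 and 67.0 CPM at D4, against 11.5, 9.83 and 11.9 CPM in MEF, a log2 change of 2.43 ± 0.19. MMERVK10C-int and B4 stood at 0.99 and 1.04 in the gene scaling and at −0.07 and −0.03 in that of the repeats, so their direction rests on the scaling. RLTR13D3 was a family that fell, by 0.48, and it was not called without MEF shCtrl replicate 3 (edgeR adjusted p = 0.053). Reads of one family cannot be assigned to single copies here, so no repeat was tied to a kept, lost or gained peak.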

How the data were processed

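ChIP-seq and RNA-seq were analysed from the files the authors deposited. The peak lists are in the narrowPeak layout on mm9, each merged from 2 replicates. Per peak the authors deposited a score, a fold enrichment (ratio over background) and −log10 of p and q. The score was 10 times the −log10 p, rounded down, in all peaks. Bowtie, MACS2 and bedtools 2.19.1 were used for these lists, per the submitters' processing notes, which also name Bowtie2 for H3K9me3 of siCtrl ES cells. Per the labels' protocols, chromatin was sonicated for histone marks and digested with MNase for factors, and the H3K9me3 antibody was Abcam ab8898. The peak threshold is not stated in the labels or file headers. For H3K27me3 in MEF, 5683 repeated lines were dropped.

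RNA counts per gene (26301 rows) and repeat family (799 rows) were deposited by the authors as whole-number counts, made with STAR 2.5.0a and featureCounts per the submitters' processing notes, from ribosomal-depleted stranded libraries per the labels' protocols. Symbols came from RefSeq by Entrez ID, with 24191 gene rows matched.

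Overlaps (at least 1 bp) were computed in Python 3.11.15 and checked against bedtools 2.31.1 on simulated data. Intervals are exact Clopper-Pearson at 95%, and Newcombe's for differences. Genes passing filterByExpr were tested with edgeR 4.0.16 (quasi-likelihood, TMM, Benjamini-Hochberg), checked on simulated counts. Repeats used the genes' library sizes and factors. Deviations of same-numbered RNA libraries from their group means correlated (0.19, 0.43 and 0.16 for numbers 1 to 3), while other pairs did not exceed 0.08. Deviations from a shared mean are not independent, so these values do not settle a pairing. The main fit used no replicate block. With the replicate number as a block, 6126 genes were called higher and 6092 lower in D4 shCtrl cells, against 5558 and 5594 without it. Regions named were the 5 highest by score and 3 widest per class, and those with SUMO-1, SUMO-2, Oct4, Sox2 and Klf4. Repeat families named were drawn from the 2 largest rises and 2 largest falls called per group. Of the SUMO conjugation list 2 genes are not reported here. The members and lists were chosen with earlier results of these data known. Alternatives are given in the closing section.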

Additional observations from a re-analysis of the deposited data

How the results depend on the processing

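The share of D4 shCtrl peaks gained and of MEF peaks kept depended on the overlap and on which peaks were counted. In that order they were 72.25% and 10.32% with 50% of both peaks shared, 46.96% and 24.21% in the upper 50% of each list by score, 72.09% and 27.84% with lists of equal length, and 47.54% and 20.38% with a gap of 1 kb allowed. With peaks within 1 kb merged 14.92% of MEF peaks were kept. Of the alternatives chosen after seeing the data, the D4 shCtrl list's lowest −log10 q applied to MEF gave 94.67% and 64.91%, and the 2 D4 lists together gave 32.54% and 21.83%. For gained minus kept, SUMO-1 gave −9.42 points over the central 500 bp, −9.14 and −14.93 in the second and the widest of 4 width groups, and −8.10 with the upper 50% of the SUMO list; SUMO-2 gave −9.80, −8.93, −15.09 and −8.23. For kept minus lost, SUMO-1 gave 2.15, 2.71 and 4.43 in the 3 narrower width groups and 5.51 with the upper 50% of the SUMO list. SUMO-2 gave 3.27, 1.87, 1.70 and 4.48, and 3.955 at the common lowest −log10 q. For Oct4, Sox2 or Klf4, gained minus kept was 1.15 points in the widest group, and kept minus lost was −1.22 and −1.28 in the third and the widest group and −1.63 at the common lowest −log10 q. The cause of these shifts was not tested.

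With the spread taken from all RNA libraries, 3893 genes were called higher and 2359 lower. With the repeats' own scaling 249 families were called higher and 240 lower, and MMERVK10C-int and B4 turned to −0.075 and −0.033. With the replicate number as a block, 12 families were called lower against 5, and Col1a2 was called as well as Phf2. The block changed no other call of a named gene. Leaving out 1 library at a time gave 3 to 7 families lower. Calls of Mphosph8, Sumo3, Cbx3, Cbx5, Col1a1, Adgre1, Epcam and RLTR13D3 were lost without at least 1 library. Precision is limited by 1 list per ChIP condition with unknown depth and by 3 RNA libraries per group.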
